A study of Mus musculus with 76 samples.

Results

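The BCL-2 family comprises the proteins that decide whether the outer membrane of the mitochondrion is breached during apoptosis. Its 10 members examined here were chosen by name as the survival and death genes of the family known from thymocytes, out of 55487 gene identifiers in the tables. All 10 were found by symbol and joined across tables by identifier. Bcl2, Bcl2l1 (which encodes BCL-XL) and Mcl1 encode the anti-apoptotic members. Bax and Bak1 encode the pore-forming effectors. Bcl2l11 (BIM), Bbc3 (PUMA), Pmaip1 (NOXA), Bid and Bad encode the BH3-only proteins, which bind anti-apoptotic members, activate effectors, or both.

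As background, anti-apoptotic members hold effectors and BH3-only proteins through a groove that receives a short helix, the BH3 domain. BH3-only proteins that fill this groove free the effectors, which then form pores, release cytochrome c and start the caspase cascade. In the thymus BCL-XL keeps immature CD4 and CD8 co-expressing thymocytes alive, BCL2 serves the mature cells downstream of IL-7 signalling, MCL1 is required throughout, and BIM carries out the deletion of self-reactive thymocytes and restrains Treg numbers.

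The study sequenced RNA of SOD1-G93A mice, which carry a mutant human SOD1 transgene and develop a disease like amyotrophic lateral sclerosis, and of wild-type (WT) mice. The labels give the strain name SOD1-G93A to all animals and do not state sex, background or whether a library is 1 animal or a pool. The 4 populations were sorted by flow cytometry from digested thymus: regulatory T cells (Treg), CD4 T cells, medullary thymic epithelial cells (mTEC) and cortical thymic epithelial cells (cTEC), each as SOD1-G93A at day 120 and day 30 and as WT at day 120 and day 30. Unsorted thymus and inguinal lymph node (iLN) were taken from SOD1-G93A and WT mice at day 120. Cultures titled Tregdiff, labelled Treg, were sampled from both genotypes without activation (T0) and after activation at points labelled T2 and T20, for which the labels give no unit, and the design text says that 1 set of Treg cells was followed through activation. Each of the 26 groups held 3 libraries, except WT cTEC and WT CD4 at day 30 with 2 each, which makes 76 libraries. No label says that the libraries of a group came from separate mice, so the p-values below measure the spread between these libraries, which may be technical.

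Libraries differed widely in depth. The sorted and cultured tables held 15135 to 36919936 counts per library, the iLN libraries 63887 to 894958, and whole thymus was deposited as TPM, a length-corrected share of transcripts that keeps no depth. Replicate 3 of SOD1-G93A cTEC at day 120 had only 7627 genes with a count and replicate 1 of SOD1-G93A mTEC at day 30 only 15135 counts, and the member calls that change when either is left out are given with their values without it. The row of mouse Sod1, whose reads include those of the closely related transgene, was higher in SOD1-G93A than in WT in 13 of 13 comparisons (log2 fold change 2.48 to 3.95), and all SOD1-G93A libraries lay above all WT libraries in 12 of them, the exception being mTEC at day 30. Markers fitted the labels in part. Foxp3 averaged 121 CPM in SOD1-G93A Treg at day 120 and 15.3 CPM in SOD1-G93A CD4 cells of that day. Aire averaged 1092 CPM in SOD1-G93A mTEC at day 120 and 2.06 CPM in SOD1-G93A cTEC of that day. At day 30 Foxp3 averaged 62.0 CPM in SOD1-G93A Treg and 20.5 CPM in SOD1-G93A CD4 cells. Cd8a had group means of 170 to 323 CPM in CD4 cells and 134 to 177 CPM in Treg. Dntt, a marker of immature CD4 and CD8 co-expressing thymocytes, averaged 1336 CPM in SOD1-G93A Treg and 232 CPM in SOD1-G93A CD4 cells at day 30. The summed level of 6 leukocyte and T cell markers in cTEC libraries was 37.4 to 254 CPM at day 120 and 1134 to 1541 CPM at day 30, so the day-30 cTEC libraries carried T cell transcripts. The 6 mTEC markers summed to 1724 to 8174 CPM in cTEC at day 120, against 925 to 1991 CPM in cTEC at day 30, while mTEC libraries held 4744 to 10355 CPM at day 120. Day-120 cTEC libraries thus overlapped mTEC libraries in mTEC markers. In the cultures Foxp3 ranged from 3.56 to 31.8 CPM at T0, from 59.4 to 265 CPM at T2 and from 39.5 to 325 CPM at T20, so the T0 libraries, although labelled Treg, held little of the defining Treg transcript.

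The stretch that relates these proteins despite their opposite roles is the BH3 helix, and its coding sequence is shown for 9 members as the 33 bases around the codon pattern leucine, any 3 codons, then glycine, alanine or serine, then aspartate. The leucine codon and the last codon pair of the pattern are in capitals. Sequences are read from the GENCODE vM21 transcripts on the coding strand, 5′ to 3′, and each lies within a single coding exon of mm10.
Bcl2: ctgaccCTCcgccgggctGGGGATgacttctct
Bcl2l1: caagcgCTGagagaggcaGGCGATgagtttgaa
Mcl1: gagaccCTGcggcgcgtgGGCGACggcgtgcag
Bax: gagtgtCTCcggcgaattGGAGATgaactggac
Bak1: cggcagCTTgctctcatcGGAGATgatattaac
Bcl2l11: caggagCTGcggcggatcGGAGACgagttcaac
Bbc3: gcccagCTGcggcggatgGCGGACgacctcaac
Bid: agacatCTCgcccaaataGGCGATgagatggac
Bad: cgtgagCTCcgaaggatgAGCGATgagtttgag
The anti-apoptotic stretches lie at chr1:106712575-106712607 (Bcl2, minus strand, exon 1 of 2), chr2:152829697-152829729 (Bcl2l1, minus strand, exon 2 of 3) and chr3:95659430-95659462 (Mcl1, plus strand, exon 1 of 3). Those of the effectors lie at chr7:45465997-45466029 (Bax, minus strand, exon 3 of 6) and chr17:27022531-27022563 (Bak1, minus strand, exon 4 of 6). Those of the BH3-only genes lie at chr2:128147144-128147176 (Bcl2l11, plus strand, exon 3 of 4), chr7:16313767-16313799 (Bbc3, plus strand, exon 3 of 4), chr6:120897289-120897321 (Bid, minus strand, exon 4 of 6) and chr19:6950786-6950818 (Bad, plus strand, exon 3 of 4). Glycine precedes the aspartate in 7 of the 9, alanine in Bbc3 and serine in Bad. The tables count reads over whole genes, so none of the values below says which isoform, or whether this stretch, was present in the transcripts counted.

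The sorted populations differed in which survival and death genes they held. Levels are given as CPM, the counts of a gene per 1e6 counts of its library, after TMM scaling over the 46 sorted libraries, which is not a length-corrected unit and serves only to compare 1 gene between libraries. Bcl2 and Bcl2l11 were higher in T cells, Bcl2l1 and Pmaip1 had their highest means in mTEC, and Mcl1 was abundant in all 4 populations. Per kilobase of exon, Mcl1 held rank 1 or 2 and Bax rank 1 to 3 of the 10 members in every one of the 26 groups.

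**Figure D1:**
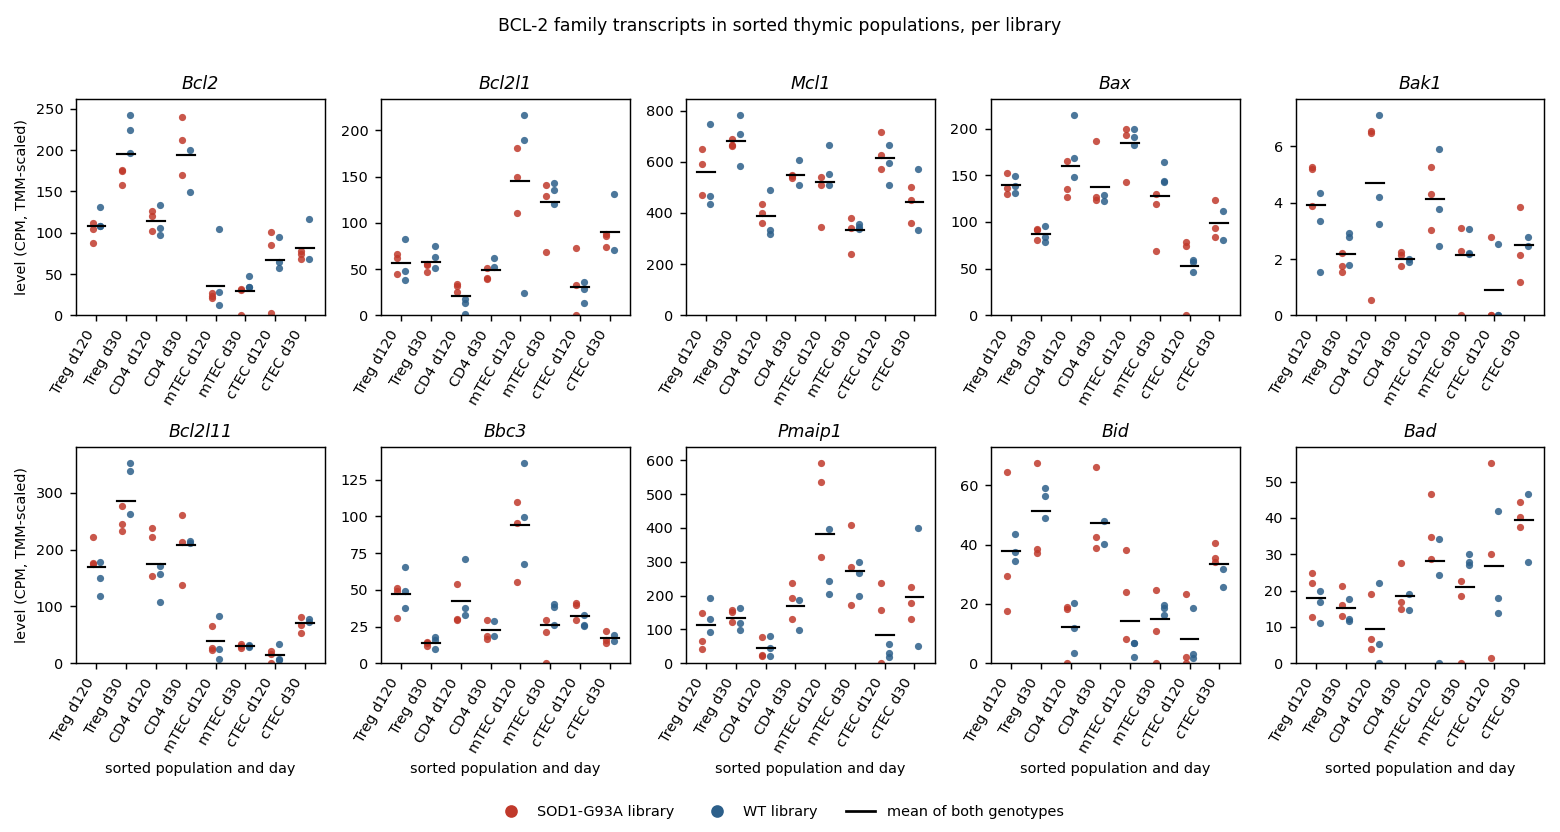
Level of each of the 10 family members in every sorted library (vertical axis, TMM-scaled CPM; horizontal axis, population and day, day 120 left of day 30), with SOD1-G93A libraries in red to the left of WT libraries in blue and a bar at the mean over both genotypes. Bcl2 and Bcl2l11 are high in Treg and CD4 cells, Pmaip1 and Bcl2l1 in mTEC, and red and blue points are mixed within nearly all columns.

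Bcl2 had a lowest, median and highest level of 158, 187 and 242 CPM in Treg at day 30 and of 149, 200 and 240 CPM in CD4 cells at day 30. In mTEC at day 30 the same figures were 0, 32.9 and 47.2 CPM, and in cTEC at day 30 they were 67.7, 74.1 and 117 CPM. All T cell libraries of day 30 therefore lay above all epithelial ones, with mTEC lowest, and the mTEC library at 0 is the one of 15135 counts, where 3 counts correspond to 103 CPM. With Treg and CD4 averaged and set against mTEC and cTEC averaged, Bcl2 was higher by 1.22 ± 0.30 on the log2 scale at day 120 (edgeR quasi-likelihood test, adjusted p = 0.000175) and by 1.87 ± 0.33 at day 30 (edgeR, adjusted p = 1.2e-07). Of all genes tested, 44.3% were called between T cells and epithelium at day 120 (adjusted p under 0.05), with 23.4% called higher in T cells, and 39.9% were called at day 30, with 13.3% higher. At day 120 Bcl2 libraries of the 2 sides overlapped. WT mTEC replicate 3 had 104 CPM where the other mTEC libraries had 12.7 to 28.6 CPM, and 1 SOD1-G93A and 1 WT cTEC library had 101 and 95.2 CPM, against 88.0 to 134 CPM in the T cell libraries.

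Bcl2l1 was highest in mTEC. Its lowest, median and highest level were 24, 165 and 216 CPM in mTEC at day 120 and 68.8, 132 and 143 CPM in mTEC at day 30. In cTEC it had 0, 31.1 and 72.3 CPM at day 120 and 70.1, 85.9 and 131 CPM at day 30. Treg had 38.6, 54.7 and 82.6 CPM at day 120 and 47.2, 54.9 and 75.2 CPM at day 30, and CD4 cells had 1.87, 21.6 and 34.2 CPM at day 120 and 39.3, 50.8 and 62.3 CPM at day 30. By means cTEC lay below Treg at day 120 and above it at day 30. With Treg and CD4 averaged against mTEC and cTEC averaged, the T cell side was lower by log2 -1.05 ± 0.36 at day 120 (edgeR, adjusted p = 0.00991) and -1.0 ± 0.38 at day 30 (edgeR, adjusted p = 0.0231), with 20.9% and 26.6% of all genes called lower. These 2 calls were lost when genes were not filtered on low counts (adjusted p = 0.069 at day 120 and 0.0759 at day 30), and the libraries of the 2 sides overlapped. The day-120 call was also lost without SOD1-G93A cTEC replicate 2 (adjusted p = 0.0557), and the day-30 call without WT CD4 replicate 3 or WT cTEC replicate 2 (adjusted p up to 0.0774). The WT mTEC day-120 replicate 3 that was high for Bcl2 was the lowest mTEC library of that day for Bcl2l1.

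Mcl1 was high in every population. Its means ran from 390 ± 64.8 CPM (CD4) to 614 ± 72.4 CPM (cTEC) at day 120 (SD, n = 6 each) and from 334 ± 48.4 CPM (mTEC, n = 6) to 681 ± 64.6 CPM (Treg, n = 6) at day 30, which is a range of 1.57-fold and 2.04-fold between populations. At day 30 T cells exceeded epithelium by log2 0.65 ± 0.16 (edgeR, adjusted p = 0.000203), and at day 120 the difference was -0.27 ± 0.15 (edgeR, adjusted p = 0.127). The day-120 difference passed with DESeq2 (-0.41, adjusted p = 3.48e-06), with limma voom (-0.31, adjusted p = 0.0411), and without SOD1-G93A cTEC replicate 3 (-0.32, adjusted p = 0.0305). Neighbours in the order of population levels overlapped at both days.

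The effectors differed in pattern and abundance. Bax had 143, 192 and 199 CPM as lowest, median and highest level in mTEC at day 120, against 0, 58.6 and 78.3 CPM in cTEC at day 120, and no library of the 2 populations overlapped. The difference was log2 1.80 ± 0.37 (edgeR, adjusted p = 2.67e-05). The 0 is the cTEC library with few genes detected, in which 3 counts correspond to 2.0 CPM but a 0 gives no bound on the level. At day 30 Bax in mTEC and cTEC differed by 0.43 ± 0.39 (edgeR, adjusted p = 0.5) and the libraries overlapped. That day-30 difference passed without the low-depth libraries (0.48, edgeR, adjusted p = 0.0447) and with limma voom (0.54, adjusted p = 0.00383). Bax in T cells over epithelium at day 120, 0.59 ± 0.26 (edgeR, adjusted p = 0.0469), did not keep its call without any of 20 of the 24 libraries or with a trended dispersion (adjusted p = 0.0869).

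Bak1 was the least abundant member in most sorted groups, with population means of 0.888 to 4.69 CPM at day 120 and 2.01 to 2.48 CPM at day 30. In mTEC at day 120 it had 2.47 to 5.90 CPM, and in cTEC at day 120 it had 2.78 CPM in 1 SOD1-G93A library, 2.55 CPM in 1 WT library and 0 in the other 4 libraries. The fitted difference of log2 2.41 ± 0.70 between mTEC and cTEC (edgeR, adjusted p = 0.0041) rests on that many zeros and is no bound. T cells exceeded epithelium in Bak1 at day 120 by 1.28 ± 0.45 (edgeR, adjusted p = 0.0113), a call lost with a trended dispersion (adjusted p = 0.0617).

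Of the BH3-only genes, Bcl2l11 separated T cells from epithelium most widely. Treg libraries had 119, 175 and 223 CPM as lowest, median and highest level at day 120 and 233, 270 and 352 CPM at day 30. CD4 libraries had 107, 164 and 238 CPM at day 120 and 138, 214 and 261 CPM at day 30. In mTEC the values were 7.41, 26.3 and 82.6 CPM at day 120 and 26.1, 30.3 and 34.4 CPM at day 30, and in cTEC 0, 11.5 and 33.2 CPM at day 120 and 53.3, 72.7 and 82.3 CPM at day 30. Every T cell library lay above every epithelial library of its day. The difference was log2 2.89 ± 0.33 at day 120 (edgeR, adjusted p = 1.1e-16) and 2.40 ± 0.35 at day 30 (edgeR, adjusted p = 2.1e-10), and it kept its call in each fit that left out 1 library.

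Pmaip1, a p53 target whose product binds mainly MCL1, was highest in mTEC. It had 206, 355 and 591 CPM in mTEC at day 120 and 172, 275 and 409 CPM in mTEC at day 30. In cTEC it had 0, 43.0 and 237 CPM at day 120, against 41.0, 112 and 193 CPM in Treg and 20.2, 34.0 and 81.9 CPM in CD4 cells of that day. At day 30 CD4 cells had 98.1, 187 and 238 CPM. At day 120 all mTEC libraries lay above all Treg and CD4 libraries, while cTEC overlapped both, and the average of Treg and CD4 was lower than that of mTEC and cTEC by log2 -1.17 ± 0.39 (edgeR, adjusted p = 0.00769). At day 30 the difference was -0.66 ± 0.41 (edgeR, adjusted p = 0.204). That day-30 difference passed without the low-depth libraries (-0.70, edgeR, adjusted p = 0.0429) and with limma voom (-0.45, adjusted p = 0.0395).

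Bbc3, the p53 and FOXO target PUMA, had population means of 93.9 ± 29.2 CPM in mTEC and 32.2 ± 6.64 CPM in cTEC at day 120 (SD, n = 6 each), with no overlap of libraries. That difference was log2 1.55 ± 0.34 (edgeR, adjusted p = 7.97e-05). Bid, which caspase-8 cleaves into its active form, was higher in T cells than in epithelium at day 120 by 1.15 ± 0.47 (edgeR, adjusted p = 0.0363). That call was lost without any of 10 of the 24 libraries and with the RLE scaling (adjusted p = 0.0568), limma voom (0.0516) and the replicate number as a block (0.0666). At day 30 Bid was at 1.05 (edgeR, adjusted p = 0.0815). It passed there without the low-depth libraries (1.03, edgeR, adjusted p = 0.0416) and with limma voom (0.97, adjusted p = 0.000385). The part that exons shared with a neighbouring gene play in the Bak1, Bid, Bad and Bax counts is not known, since strand handling is not given in the sources used here: Gpr137 covers 20.5% of Bad exon bases, Ggnbp1 18.2% of Bak1, Bcl2l13 17.7% of Bid and Gm45808 12.2% of Bax. Bad, whose activity is set by phosphorylation downstream of growth factors, was called in no population contrast by edgeR, its closest being T cells over epithelium at day 120 (-1.03 ± 0.49, edgeR, adjusted p = 0.0736). That difference passed with DESeq2 (-1.20, adjusted p = 0.0113), with limma voom (-1.48, adjusted p = 0.00133) and without SOD1-G93A cTEC replicate 3 (-1.21, adjusted p = 0.0116), and limma voom also called Bad in T cells over epithelium and mTEC over cTEC at day 30 and in Treg over CD4 cells at day 120.

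**Figure D2:**
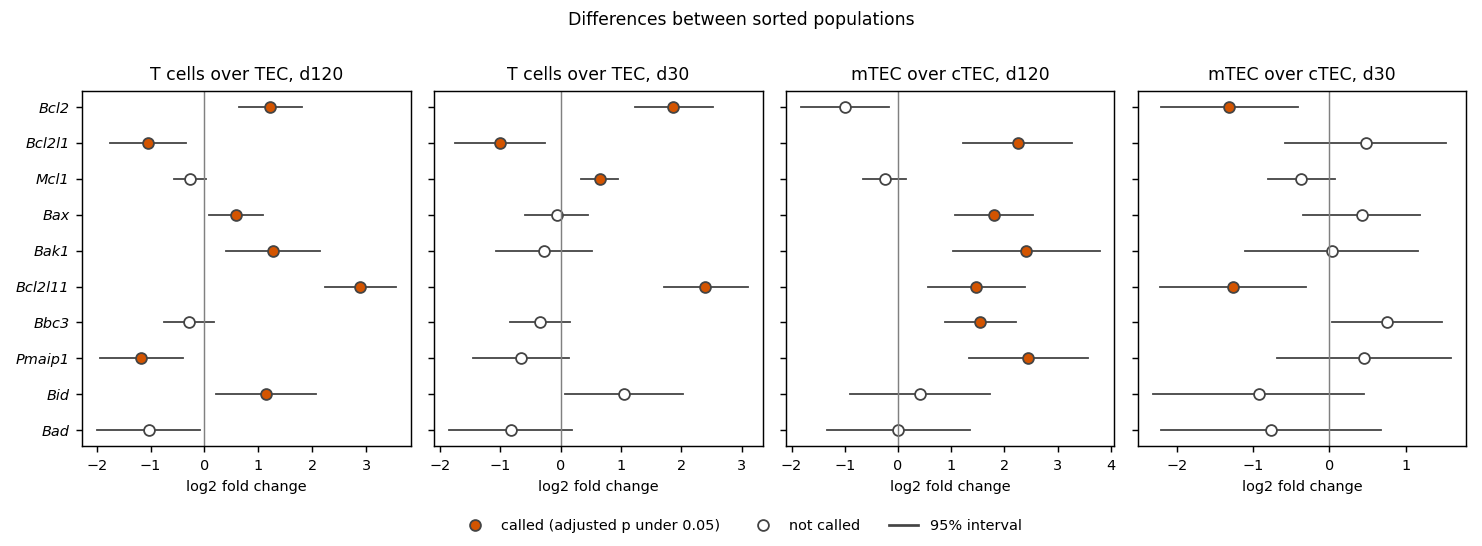
Log2 fold change of each member between populations with its 95% interval (horizontal axis) in 4 panels: T cells over thymic epithelium at day 120 and day 30, and mTEC over cTEC at day 120 and day 30. Filled points passed an adjusted p of 0.05. Bcl2l11 lies at 2.89 and 2.40 in the T cell panels, and 6 members are filled at or above 1.47 in the mTEC over cTEC panel of day 120.

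Set against the background, 7 members were called between T cells and epithelium at day 120 (Bcl2, Bcl2l11, Bax, Bak1 and Bid higher, Bcl2l1 and Pmaip1 lower), where 44.3% of all genes were. At day 30, 4 members were called (Bcl2, Bcl2l11 and Mcl1 higher, Bcl2l1 lower), where 39.9% were. Between mTEC and cTEC, 6 members were called higher at day 120, namely Bcl2l1 (2.25 ± 0.52), Bax, Bak1, Bcl2l11, Bbc3 and Pmaip1 (2.45 ± 0.57), where 30.5% of all genes were called and 25.1% were higher. The median of all genes in that contrast was 0.62, so part of each of these values is shared with the whole transcriptome of these libraries. Bcl2l11 fell from log2 1.47 to 0.86 and lost its call (edgeR, adjusted p = 0.113) without WT mTEC replicate 3. The Bcl2l11 call was also lost with limma voom (0.70, adjusted p = 0.465) and with both populations alone (1.52, edgeR, adjusted p = 0.0906). Without SOD1-G93A cTEC replicate 3 the 6 calls stayed, and Bcl2 (-0.99, edgeR, adjusted p = 0.0588) was also called, lower in mTEC (-1.28, adjusted p = 0.000469). The mTEC marker sum was 4744 to 10355 CPM in mTEC and 1724 to 8174 CPM in cTEC at day 120, and its part in these values was not tested. At day 30, 2 members were called lower in mTEC, Bcl2 (-1.31 ± 0.46, edgeR, adjusted p = 0.0232) and Bcl2l11 (-1.26 ± 0.49, edgeR, adjusted p = 0.0416). Of all genes, 23.4% were called and 6.22% were lower. Neither passed with the RLE scaling (adjusted p = 0.0776 and 0.132), which moved the median of all genes by 0.26. Both calls were also lost with DESeq2 (adjusted p = 0.0814 and 0.133) and with both populations alone (0.171 and 0.304). Bbc3 was not called in the main edgeR fit (0.75, adjusted p = 0.127). It was called higher in mTEC with DESeq2 (1.02, 0.00718), the RLE scaling (1.01, 0.0233) and limma voom (0.79, 0.0134). The Bcl2 call was also lost without any of 5 and the Bcl2l11 call without any of 10 of the 22 libraries, among them the mTEC library of 15135 counts (-1.20, adjusted p = 0.0553). The Bcl2l11 call was lost with a trended dispersion (adjusted p = 0.0594) and with the replicate number as a block (0.0761) too. The leukocyte and T cell marker sum in the same libraries was 89.2 to 175 CPM in mTEC and 1134 to 1541 CPM in cTEC, and its part in the day-30 values of these T cell genes was not tested.

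Few members were called between Treg and CD4 cells. At day 30 none of the 10 members was called by edgeR or DESeq2, where 1.66% of all genes were called by edgeR. Bbc3, the 1 member with an unadjusted p under 0.05, was at -0.70 ± 0.35, and Bax was at -0.63 ± 0.38 (edgeR, adjusted p = 0.564 and 0.761). Bax was called lower in Treg when edgeR was fitted on both populations alone (-0.63, adjusted p = 0.00429). It was also called without the low-depth libraries (-0.63, edgeR, adjusted p = 0.0224). With limma voom and quality weights, which give discordant libraries less weight, 4 members were called, namely Mcl1 (0.28) and Bcl2l11 (0.39) higher and Bax (-0.59) and Bbc3 (-0.69) lower. The 1.66% is that of edgeR, and no share of all genes is given for limma voom to set beside these 4. At day 120 edgeR called Bcl2l1 alone, with 38.6, 54.7 and 82.6 CPM in Treg and 1.87, 21.6 and 34.2 CPM in CD4 cells as lowest, median and highest level. All Treg libraries lay above all CD4 libraries, and the difference was log2 1.66 ± 0.52 (edgeR, adjusted p = 0.0279), where 7.24% of all genes were called. The median of all genes was 0.44 in this contrast and 0.10 with the RLE scaling, under which Bcl2l1 was at 1.27 with an adjusted p of 0.108, and DESeq2 gave an adjusted p of 0.0573. The call was also lost with a trended dispersion (adjusted p = 0.0506) and without any of 7 of the 24 libraries (adjusted p up to 0.0934). At day 120 the markers of double-positive (CD4 and CD8 co-expressing) thymocytes summed to 760 to 1317 CPM in Treg and 437 to 804 CPM in CD4 cells. Within that sum Dntt averaged 430 CPM (SOD1-G93A) and 345 CPM (WT) in Treg, against 33.2 and 43.6 CPM in CD4 cells. Cd8a went the other way, at 177 CPM (SOD1-G93A) and 134 CPM (WT) in Treg, against 230 and 170 CPM in CD4 cells. The B cell markers summed to 119 to 368 CPM in Treg and 0 to 168 CPM in CD4 cells. Their part in the Bcl2l1 value was not tested. Limma voom also called Mcl1 (0.54), Bid (2.08) and Bad (1.61) higher in Treg at day 120. Without SOD1-G93A cTEC replicate 3 edgeR called Pmaip1 (1.24, adjusted p = 0.0224) and Bid (1.63, adjusted p = 0.0453) too. Fitted on both populations alone at day 120, edgeR called Bax lower in Treg (-0.44, adjusted p = 0.0299) beside Bcl2l1. That fit also called Pmaip1 (1.06, 0.0296) and Bid (1.37, 0.0227) higher.

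By day, edgeR called 5 members in Treg, where 35.4% of all genes were called, and 2 in CD4 cells, where 18.1% were. It called 1 member in mTEC, where 7.46% of all genes were called, and 0 in cTEC, where 9.35% were. In Treg, Bcl2 and Bcl2l11 fell, Bax and Bbc3 rose, and Mcl1 fell slightly, so the 5 calls covered all 3 roles. Fold changes by day and by genotype were fitted on the libraries of 1 population with its own scaling and need not equal the ratio of the printed CPM. Day is confounded with whatever differed between the preparations of the 2 ages, and the 2 cannot be told apart. In bulk RNA, fewer cells of a type and less RNA per cell also cannot be told apart.

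**Figure D3:**
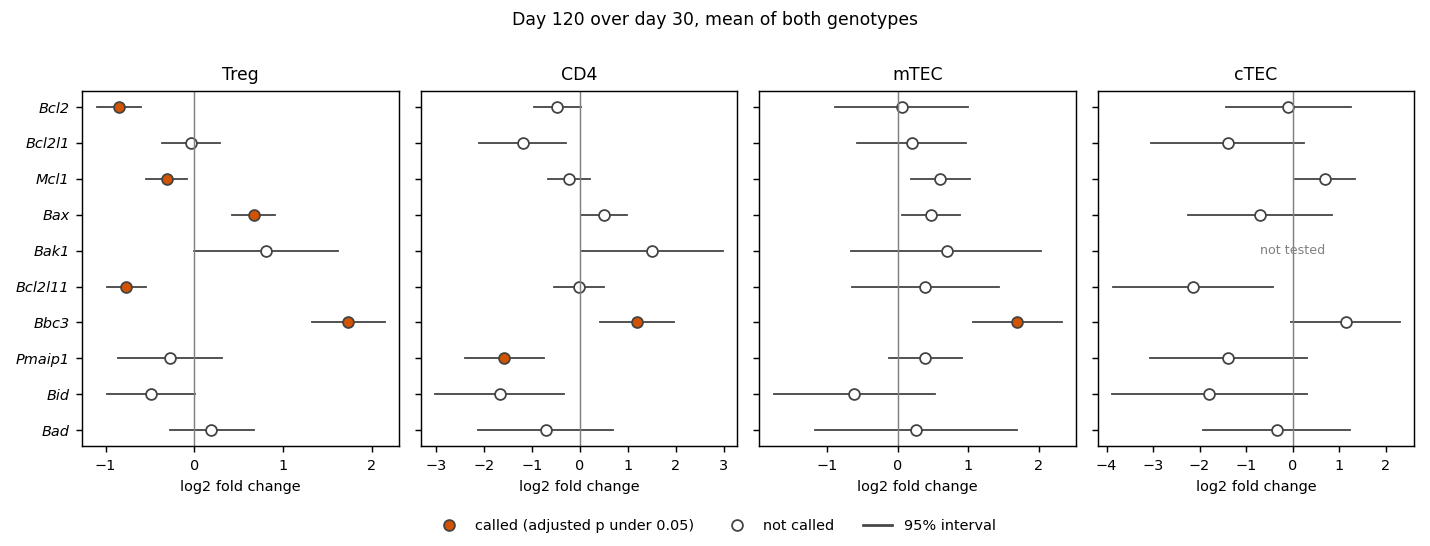
Log2 fold change of each member at day 120 over day 30 with its 95% interval (horizontal axis), in panels for Treg, CD4 cells, mTEC and cTEC. Filled points passed an adjusted p of 0.05. Bbc3 is filled and above 1 in Treg (1.73), mTEC (1.69) and CD4 cells (1.19), and no point is filled in cTEC.

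In Treg, Bcl2 had 88.0, 105 and 112 CPM in SOD1-G93A and 131, 108 and 108 CPM in WT at day 120. At day 30 it had 158, 175 and 176 CPM in SOD1-G93A and 197, 242 and 224 CPM in WT. Every day-120 library lay below every day-30 library, and the change was log2 -0.85 ± 0.13 (edgeR, adjusted p = 1.45e-09). Bcl2l11, the BH3-only partner of BCL2 in T cells, had 223, 176 and 174 CPM in SOD1-G93A and 179, 151 and 119 CPM in WT at day 120, against 246, 233 and 277 CPM in SOD1-G93A and 339, 352 and 263 CPM in WT at day 30. The ages again did not overlap, and the change was -0.77 ± 0.11 (edgeR, adjusted p = 1.06e-10). Both genes thus had lower levels at day 120 in either genotype.

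Bax in Treg had 136, 130 and 152 CPM in SOD1-G93A and 149, 139 and 131 CPM in WT at day 120, and 92.3, 91.4 and 81.0 CPM in SOD1-G93A and 84.0, 96.1 and 78.8 CPM in WT at day 30. Its change was log2 0.67 ± 0.12 (edgeR, adjusted p = 1.17e-06), with no overlap. Bbc3 had 49.3, 50.9 and 31 CPM in SOD1-G93A and 65.7, 37.7 and 49.0 CPM in WT at day 120, and 11.9, 14.6 and 13.8 CPM in SOD1-G93A and 17.9, 16 and 9.57 CPM in WT at day 30. Its change of 1.73 ± 0.21 (edgeR, adjusted p = 6.18e-15) was the most extreme of the 10, also without overlap. Mcl1 overlapped between the ages (436 to 749 CPM at day 120, 584 to 781 CPM at day 30), and its change of -0.31 ± 0.12 (edgeR, adjusted p = 0.0284) was lost without the filter (adjusted p = 0.134) and without any of SOD1-G93A replicate 1 of day 30, WT replicate 3 of day 120 and WT replicate 1 of day 30 (adjusted p up to 0.0966). The other 5 members were not called by edgeR with all libraries. Limma voom called Pmaip1 (-0.83, adjusted p = 0.0102), and edgeR called Pmaip1 without SOD1-G93A replicate 3 of day 120 (-0.70, 0.00551), Bid without SOD1-G93A replicate 1 of day 120 (-0.79, 0.00171) and Bak1 without WT replicate 3 of day 120 (0.93, 0.0469).

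These 5 of 10 members stand against a background of 35.4% of all genes called in Treg by day, 18.6% higher and 16.8% lower. The 8 markers of double-positive thymocytes summed to 760 to 1317 CPM in Treg at day 120 and 2061 to 2911 CPM at day 30, and 5 of the 8 were called lower. Dntt made up much of that sum. It averaged 430 CPM in SOD1-G93A and 345 CPM in WT at day 120, and 1336 and 1380 CPM at day 30. Cd8a, also among the 8, did not follow the sum. It averaged 177 CPM in SOD1-G93A and 134 CPM in WT at day 120, and 141 and 158 CPM at day 30. The 6 Treg markers summed to 1331 to 2571 CPM at day 120 and 1295 to 1418 CPM at day 30, with 5 called higher and 1 lower. The 5 B cell markers summed to 119 to 368 CPM at day 120 and 35.1 to 81.6 CPM at day 30, with 4 called higher, and of the 6 leukocyte and T cell markers 5 were called lower and 1 higher. The part of these shifts in the member values was not tested.

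In CD4 cells 2 members were called by day with edgeR, where 18.1% of all genes were. Pmaip1 had 23.7, 21.4 and 78.6 CPM in SOD1-G93A and 44.4, 81.9 and 20.2 CPM in WT at day 120, against 238, 132 and 194 CPM in SOD1-G93A and 187 and 98.1 CPM in WT at day 30. All day-120 libraries were below all day-30 libraries, with a change of log2 -1.57 ± 0.42 (edgeR, adjusted p = 0.00271), which was at an adjusted p of 0.0554 without WT CD4 replicate 2 of day 30. Bbc3 had 29.2 to 70.7 CPM at day 120 and 16.7 to 29.1 CPM at day 30, which is a change of 1.19 ± 0.40 (edgeR, adjusted p = 0.0212). That call was lost with a trended dispersion (adjusted p = 0.0565), without the filter (0.166), and without any of 6 of the 11 libraries. Bcl2l1 (-1.19 ± 0.46, edgeR, adjusted p = 0.0534) and Bid (-1.67 ± 0.68, edgeR, adjusted p = 0.0703) did not pass, although the ages did not overlap in either. Bcl2 (-0.47 ± 0.25, edgeR, adjusted p = 0.183) also did not. Bcl2l1 passed with DESeq2 (adjusted p = 0.0475), limma voom (0.0207) and no filter (0.0367). It also passed with the replicate number as a block (0.034), which joined libraries of both genotypes and both days by number alone. Bid passed with limma voom (adjusted p = 0.0405) and without the filter (0.0334), and Bax with limma voom (0.56, 0.0328). Some fits that left out 1 library called Bcl2l1, Bid or Bak1. Of the marker lists in CD4 cells, 3 of 8 double-positive thymocyte markers (437 to 804 CPM in sum at day 120, 920 to 1645 CPM at day 30), 3 of 6 myeloid and dendritic markers (19.6 to 442 CPM at day 120, 137 to 340 CPM at day 30), 2 of 4 tested cTEC markers and 2 of 4 tested epithelial markers were called lower at day 120, and 4 of 6 Treg markers higher. Their part in the member values was not tested.

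In mTEC, Bbc3 alone was called by day, where 7.46% of all genes were. It had 110, 95.2 and 55.3 CPM in SOD1-G93A and 99.6, 67.5 and 136 CPM in WT at day 120. At day 30 it had 0, 29.5 and 21.4 CPM in SOD1-G93A, the 0 being in the library of 15135 counts, and 38.4, 40 and 25.9 CPM in WT. The ages did not overlap, and the change was log2 1.69 ± 0.32 (edgeR, adjusted p = 1.43e-05), with an adjusted p of at most 0.00227 in any fit that left out 1 library. Mcl1 in mTEC was at 0.60 ± 0.21 (edgeR, adjusted p = 0.0565) and passed with the RLE scaling (adjusted p = 0.0212) and with DESeq2 (0.0149).

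In cTEC no member was called by day with edgeR, where 9.35% of all genes were. Unadjusted, 2 members had a p under 0.05, DESeq2 called none and limma voom called 3 (Mcl1, Bcl2l11 and Bid), and replicate 3 of SOD1-G93A cTEC at day 120 changed the count. In that library Mcl1 and Bbc3 were at 570 and 40.7 CPM, near the other cTEC libraries of the day, while Bcl2l1, Bax, Bcl2l11, Pmaip1 and Bid had no count. Without it, 4 members were called: Bcl2l11 (log2 -1.90, edgeR, adjusted p = 0.0018), Bcl2l1 (-1.12, 0.0153), Mcl1 (0.67, 0.0385) and Bbc3 (1.02, 0.0392). The 9.35% is from the main edgeR fit with all libraries. No share of all genes is given for limma voom or for the fit without this library. Bbc3 libraries did not overlap between the ages even with it, at 25.5 to 40.7 CPM at day 120 and 13.6 to 21.7 CPM at day 30. The leukocyte and T cell marker sum in cTEC was 37.4 to 254 CPM at day 120 and 1134 to 1541 CPM at day 30, and 5 of the 6 markers were called lower at day 120, while 4 of the 6 mTEC markers were called higher. Their part in the member values was not tested.

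Whether a change by day differed between populations was tested directly. Mcl1 changed differently in T cells and epithelium, the difference of the 2 changes being log2 -0.92 ± 0.21 (edgeR, adjusted p = 0.00127), where 5.89% of all genes were called. Its mean in Treg was 560 CPM at day 120 and 681 CPM at day 30, and in CD4 cells 390 CPM at day 120 and 550 CPM at day 30. In mTEC it was 521 CPM at day 120 and 334 CPM at day 30, and in cTEC 614 CPM at day 120 and 444 CPM at day 30. The T cell means were thus lower and the epithelial means higher at day 120. Bcl2l11 changed differently in mTEC and cTEC (2.74 ± 0.67, edgeR, adjusted p = 0.00332), where 4.22% of all genes were called, with means in mTEC of 38.6 CPM at day 120 and 30.4 CPM at day 30, and in cTEC of 13.9 CPM at day 120 and 70.6 CPM at day 30. Without SOD1-G93A cTEC replicate 3 of day 120, Bax was called in this test too (1.02, edgeR, adjusted p = 0.00756). Between Treg and CD4 cells no member was called in this test by edgeR or DESeq2, where 0.216% of all genes were by edgeR, and 2 members had an unadjusted p under 0.05. Limma voom called 3 (Bcl2l1, Bid and Bad), and no share of all genes is given for that fit. The Treg changes in Bcl2, Bax and Bcl2l11 were therefore not shown to differ from those of CD4 cells.

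In the cultures the changes after activation were present at T2. Bcl2, Bcl2l1, Bax, Bak1 and Pmaip1 rose, and Mcl1 and Bbc3 fell at T2. Bcl2l11, Bid and Bad were not called at either point in the main edgeR fit. These comparisons pooled SOD1-G93A and WT cultures. At T2 over T0, 61.5% of all genes were called, 25.4% higher and 36.1% lower, and at T20 over T0 61.6% were, so the 7 and 6 members called are close to that background.

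**Figure D4:**
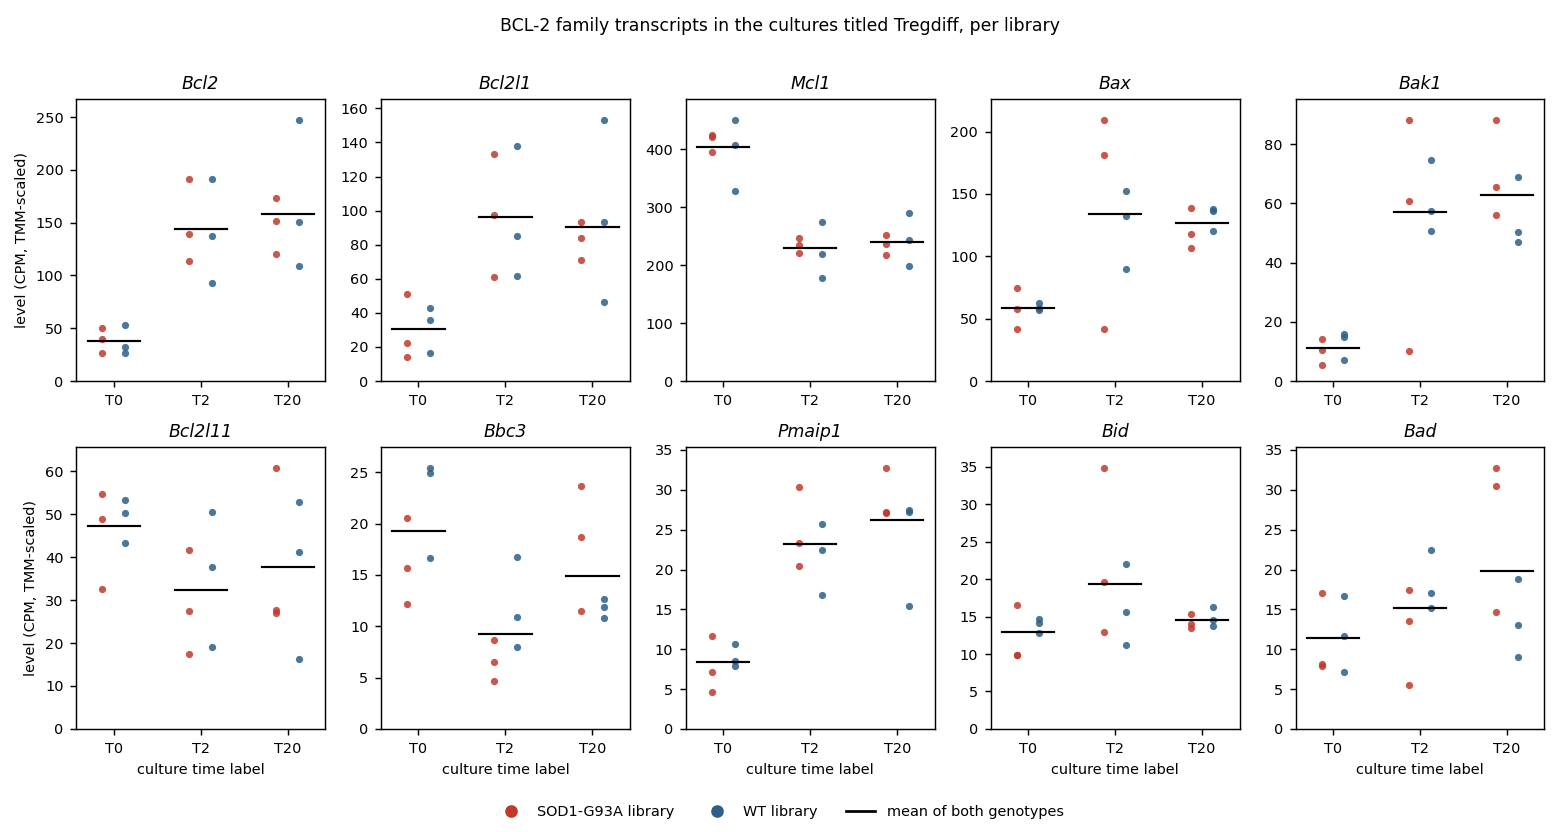
Level of each of the 10 members in every library of the cultures titled Tregdiff (vertical axis, TMM-scaled CPM; horizontal axis, T0, T2 and T20), with SOD1-G93A in red to the left of WT in blue and a bar at the mean. Bcl2 means are 38.1, 144 and 159 CPM in order of time, and 1 red point at T2 lies low for Bax (42.0 CPM) and Bak1 (10.1 CPM).

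Bcl2 had 26.5, 35.8 and 53.0 CPM as lowest, median and highest level at T0, 92.5, 138 and 191 CPM at T2, and 109, 152 and 247 CPM at T20. No activated library overlapped the unactivated ones, and the change was log2 1.85 ± 0.28 at T2 (edgeR, adjusted p = 3.52e-10) and 2.02 ± 0.28 at T20 (edgeR, adjusted p = 6.41e-12). Bcl2l1, which T cell activation is known to induce, had 14.3, 29.3 and 51.2 CPM at T0, 60.9, 91.3 and 138 CPM at T2, and 46.6, 88.8 and 153 CPM at T20. It was higher by 1.71 ± 0.36 at T2 (edgeR, adjusted p = 6.36e-06) and by 1.56 ± 0.36 at T20 (edgeR, adjusted p = 4.21e-05). In 1 WT library of T20 it lay within the T0 range.

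Mcl1 went against these survival genes, with 328, 415 and 450 CPM at T0, 178, 228 and 275 CPM at T2, and 198, 240 and 290 CPM at T20. No library overlapped, and the changes were log2 -0.84 ± 0.18 (edgeR, adjusted p = 1.46e-05) and -0.76 ± 0.18 (edgeR, adjusted p = 0.0001). The median of all genes was -0.24 at T2 and -0.25 at T20. The call was lost under other settings: without the filter it was -0.40 at T2 (adjusted p = 0.31) and -0.29 at T20 (0.542), and without the low-depth libraries it was -0.39 at T20 (0.19). Leaving out SOD1-G93A replicate 3 of T20, WT replicate 3 of T0 or WT replicate 2 of T20 also ended the call at T20 (adjusted p up to 0.075).

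Both effectors rose. Bax had 42.1 to 74.5 CPM at T0, 42.0 to 209 CPM at T2 and 107 to 139 CPM at T20, with changes of log2 1.18 ± 0.30 (edgeR, adjusted p = 0.0003) and 1.10 ± 0.30 (edgeR, adjusted p = 0.000697). Bak1 had 5.37 to 16 CPM at T0, 10.1 to 88.0 CPM at T2 and 46.9 to 88.0 CPM at T20, with changes of 2.26 ± 0.42 (edgeR, adjusted p = 3.06e-07) and 2.38 ± 0.42 (edgeR, adjusted p = 7.51e-08). SOD1-G93A replicate 1 at T2 stood apart in both genes, at 42.0 CPM of Bax and 10.1 CPM of Bak1, no higher than the T0 libraries, and both calls remained without it.

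Pmaip1 had 4.65, 8.16 and 11.6 CPM at T0, 16.8, 22.9 and 30.4 CPM at T2 and 15.4, 27.2 and 32.7 CPM at T20, with no overlap between T0 and either later point. Its changes were log2 1.43 ± 0.32 (edgeR, adjusted p = 3.64e-05) and 1.63 ± 0.32 (edgeR, adjusted p = 2.39e-06). Bbc3 had 12.2 to 25.4 CPM at T0, 4.65 to 16.8 CPM at T2 and 10.8 to 23.7 CPM at T20. It was lower at T2 by log2 -1.31 ± 0.31 (edgeR, adjusted p = 5.91e-05), which was -0.83 (adjusted p = 0.102) without the filter, and at T20 the value was -0.51 ± 0.30 (edgeR, adjusted p = 0.12). Bcl2l11, at 32.6 to 54.6 CPM at T0, had values of -0.54 ± 0.31 at T2 and -0.34 ± 0.31 at T20. Neither passed the threshold (edgeR, adjusted p = 0.114 and 0.344). Without SOD1-G93A replicate 1 of T2, Bcl2l11 was called at T2 (-0.74, edgeR, adjusted p = 0.0443). Bid at T2 was at 0.48 (edgeR, adjusted p = 0.135). It passed without the low-depth libraries (0.75, 0.0243) and without the filter (0.94, 0.0365). Bad at T20 was at 0.65 (edgeR, adjusted p = 0.126) and passed without the filter (1.12, 0.0232). Some fits that left out 1 library also called Bid at T2 or Bad at T20.

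Between T20 and T2 no member was called by edgeR, DESeq2 or limma voom, where 0.0424% of all genes were called by edgeR. The 1 member with an unadjusted p under 0.05 was Bbc3, at log2 0.80 ± 0.32 (edgeR, adjusted p = 0.743). The 6 Treg markers summed to 75.6 to 464 CPM at T0, 1684 to 4924 CPM at T2 and 1742 to 3726 CPM at T20, with 6 of 6 called higher at both points. The 6 markers of mature thymocytes summed to 1962 to 3053 CPM at T0, 242 to 590 CPM at T2 and 191 to 687 CPM at T20. The part of such shifts in the member values was not tested.

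No member was called between SOD1-G93A and WT in any of 13 comparisons, which covered 124 of 130 member and comparison pairs, where 0.261% of all genes were called by edgeR or limma. Of the pairs not tested, Bak1 was below the filter in both cTEC comparisons and Bbc3, Pmaip1, Bid and Bad in iLN. DESeq2 and limma voom also called none in the comparisons on counts. Whole thymus, held as TPM, was tested with limma only. An unadjusted p under 0.05 occurred 4 times, and 11 of the 130 pairs had groups without overlap, where 10% of all genes tested did. No member was called in the test of whether the genotype effect differed by day (0.0247% of all genes called, 2 members with an unadjusted p under 0.05) or by culture time (0.0212% of all genes called, 0 such members).

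**Figure D5:**
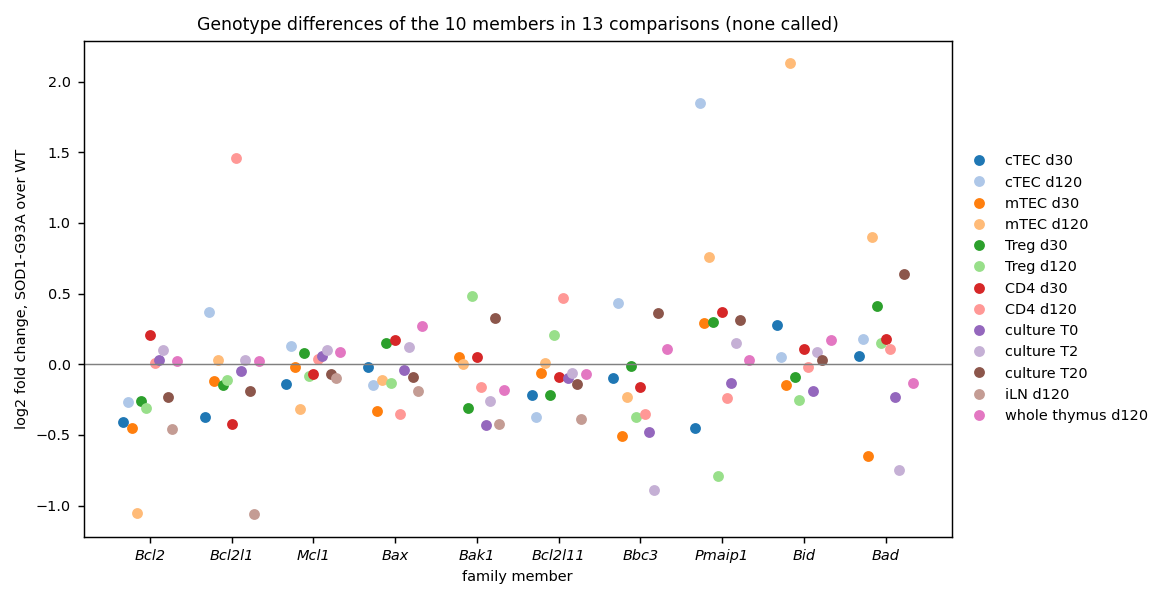
Log2 fold change SOD1-G93A over WT of each member (horizontal axis) in the 13 comparisons of tissue, population, day and culture time, 1 dot per comparison. None passed an adjusted p of 0.05, and the most extreme dots are Bid in mTEC at day 120 (2.13) and Pmaip1 in cTEC at day 120 (1.85).

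The 4 pairs with the smallest unadjusted p were spread over 3 roles and 3 kinds of thymus sample. Bid in mTEC at day 120 had 8.24, 24.1 and 38.2 CPM in SOD1-G93A and 6.83, 6.79 and 2.12 CPM in WT, without overlap, a difference of log2 2.13 ± 0.83 (edgeR, unadjusted p = 0.0103, adjusted p = 0.24). Pmaip1 in the same cells had 536, 591 and 314 CPM in SOD1-G93A and 397, 242 and 206 CPM in WT, which overlap, at 0.76 ± 0.37 (edgeR, adjusted p = 0.474). Bcl2l1 in CD4 cells at day 120 had 34.2, 25.4 and 31.7 CPM in SOD1-G93A and 13.5, 1.87 and 17.7 CPM in WT, without overlap, at 1.46 ± 0.65 (edgeR, adjusted p = 0.545). Bax in whole thymus had 158, 162 and 172 TPM in SOD1-G93A and 146, 137 and 127 TPM in WT, without overlap, at 0.27 ± 0.09 on the log2(TPM + 1) scale (limma, adjusted p = 0.999). None of these is a call.

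Where a genotype difference could have been missed is shown by the intervals. In Treg the 95% interval of the genotype difference at day 120 was -0.66 to 0.05 for Bcl2, -0.41 to 0.25 for Mcl1, -0.47 to 0.21 for Bax and -0.09 to 0.52 for Bcl2l11, all on the log2 scale. In cTEC at day 120 the interval for Bax was -2.24 to 1.94, so a several-fold difference in either direction was not detectable there, and without SOD1-G93A replicate 3 the value was 0.43, also not a call. Pmaip1 in cTEC at day 120 had 157, 237 and 0 CPM in SOD1-G93A and 29.0, 57.0 and 17.7 CPM in WT, a difference of 1.85 ± 1.19 (edgeR, adjusted p = 0.672). Without SOD1-G93A replicate 3, the library at 0, it was 2.44 with an adjusted p of 0.0249, the only member call by genotype that leaving out low-depth libraries gave. Pmaip1 in Treg at day 120 had 41.0, 66.1 and 148 CPM in SOD1-G93A and 131, 92.9 and 193 CPM in WT, which overlap, at -0.79 ± 0.42 (edgeR, adjusted p = 0.64). Without SOD1-G93A Treg replicate 3, the library at 148 CPM, it was -1.63 with an adjusted p of 0.00102, a sign opposite to that in cTEC.

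In whole thymus at day 120 the members can be ranked by length-corrected level, and the top 3 in either genotype were Mcl1, Bcl2l1 and Bax. Mcl1 averaged 222 ± 34.0 TPM in SOD1-G93A and 208 ± 14.2 TPM in WT, Bcl2l1 186 ± 8.03 TPM in SOD1-G93A and 183 ± 12.1 TPM in WT, and Bax 164 ± 7.29 TPM in SOD1-G93A and 136 ± 9.54 TPM in WT (SD, n = 3 each). Bak1 was the fourth at 66.1 ± 4.67 TPM in SOD1-G93A and 74.7 ± 3.58 TPM in WT, and Pmaip1 was the tenth at 3.51 ± 1.04 TPM in SOD1-G93A and 3.39 ± 0.756 TPM in WT. Bak1 and Pmaip1 thus held ranks in whole thymus unlike those in the sorted libraries, where Pmaip1 reached the first rank per kilobase in at least 1 group and Bak1 rank 10. The whole thymus table was scaled separately by the authors, and no test was made across the tables. In iLN, Mcl1 ranked first and Bax second per kilobase in both genotypes, with Bcl2 at 158, 111 and 90.0 CPM in SOD1-G93A and 210, 130 and 147 CPM in WT.

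The genes around the family were described with 4 lists chosen for their role. Of 17 upstream regulators, 6 were called higher and 3 lower at day 120 than at day 30 in Treg, where 18.6% of all genes were called higher and 16.8% lower, and where the median of all genes was 0.01 and that of the list 0.20. Ddit3, the stress-induced factor CHOP, averaged 210 CPM at day 120 and 32.9 CPM at day 30 (log2 2.63 ± 0.17, edgeR, adjusted p = 6.26e-50). Foxo1, a transcription factor known to drive Bcl2l11 and Il7r in T cells, averaged 310 CPM at day 120 and 93.2 CPM at day 30 (1.70 ± 0.14, edgeR, adjusted p = 7.01e-31). Nr4a1, an immediate product of T cell receptor signalling, averaged 146 CPM at day 120 and 297 CPM at day 30 (-1.05 ± 0.16, edgeR, adjusted p = 1.67e-09). Ddit3 was also higher at day 120 in CD4 cells (3.14 ± 0.44), mTEC (1.84 ± 0.27) and cTEC (1.90 ± 0.62).

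Of 13 genes of the apoptosome, caspases and their inhibitors, 2 were higher and 3 lower by day in Treg, a share near the 35.4% of all genes called. Vdac1, the outer-membrane channel, averaged 73.9 CPM at day 120 and 223 CPM at day 30 (log2 -1.68 ± 0.19, edgeR, adjusted p = 6.61e-16), and Apaf1, the scaffold of the apoptosome, averaged 26.8 CPM at day 120 and 57.2 CPM at day 30 (-1.12 ± 0.22). Vdac1 was also the single gene of the 4 lists that was called between genotypes, with 112 CPM in SOD1-G93A mTEC and 45.2 CPM in WT mTEC at day 120 (1.30 ± 0.37, edgeR, adjusted p = 0.0401), where 1.14% of all genes were called. In the cultures 7 of these 13 genes were higher and 3 lower at T2 than at T0, where 25.4% of all genes were higher and 36.1% lower. Among the higher was Cycs, cytochrome c, with means of 135 CPM at T0, 742 CPM at T2 and 757 CPM at T20.

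Of 9 death receptor genes 3 were higher and 2 lower at T2 than at T0, a share near the 61.5% of all genes called, with Fasl at 1.48 CPM at T0 and 10 CPM at T2 (log2 2.86 ± 0.62, edgeR, adjusted p = 1.34e-05) and Cflar, the inhibitor FLIP, at 238 CPM at T0 and 71.6 CPM at T2 (-1.73 ± 0.27, edgeR, adjusted p = 1e-09). Of 12 other BCL-2 family genes 9 were tested, with 3 higher and 3 lower at T2, again near that share. Bcl2a1b, which encodes the anti-apoptotic A1, was higher (2.52 ± 0.37, edgeR, adjusted p = 7.04e-11), but it shares reads with near-identical copies and its count is uncertain. Bmf, a BH3-only gene, was lower (-3.11 ± 0.73, edgeR, adjusted p = 6.14e-05). Il7r, the receptor whose signal maintains BCL2, was at 884 CPM at T0 and 29.7 CPM at T2 (-4.87 ± 0.39).

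Across the means of the 16 sorted groups, some members followed each other. The Pearson correlation of log2(CPM + 1) was 0.78 between Bcl2 and Bcl2l11, 0.88 between Bcl2l1 and Pmaip1 and 0.82 between Bax and Bak1, as a description over groups that share libraries and depth differences. Among 11920 genes with a mean of at least 5 CPM, the nearest pattern to Bcl2 was that of Lig1 (0.962), Stim1 (0.960) and Slc35d1 (0.955). The nearest to Bcl2l1 were Tmem19 (0.944), Slc25a10 (0.925) and Bmp2k (0.917), to Mcl1 Ddx5 (0.864), Spsb1 (0.848) and Ddx3x (0.817), and to Bcl2l11 Pik3cd (0.983), Eif3m (0.978) and Thrap3 (0.975).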

How the data were processed

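Low-input SMART-seq libraries were made from FACS-sorted cells, cultures, lymph node and unsorted thymus, per the labels' protocols. The authors deposited counts per gene for sorted cells, cultures and iLN, and TPM for whole thymus. The submitters' processing notes name mm10 and DESeq2 but not what each was used for, and no aligner, counter, annotation or strand setting is given in the sources used. Of 55487 gene identifiers 55094 matched GENCODE vM21.

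Counts were tested with edgeR 4.0.16 (R 4.3.3; TMM scaling, filterByExpr, tagwise dispersion, quasi-likelihood F-test) on each population's libraries for genotype, day and their interaction, on all 46 sorted libraries for population contrasts, and on the cultures and iLN separately. TPM were tested with limma 3.58.1 (trend) on log2(TPM + 1), keeping genes whose mean reached 1 TPM. All tables were fitted whole and p-values adjusted by Benjamini-Hochberg over all genes tested. A call is an adjusted p under 0.05. Shares of all genes called are those of the main fits with all libraries, and none is given for other settings. Intervals are 95% and, like the floor of 3 counts, cover no more than the spread and counting error modelled. Total counts ranged from 15135 to 36919936.

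On simulated data of 7 comparisons the tagwise fit recovered 122 of 700 genes changed 2-fold and 364 of 700 changed 4-fold, and 19.7% of its calls were false; a trended dispersion recovered 80 and 278 with 5.79% false, and member calls lost under it are marked in the text. Alternatives were DESeq2 1.42.0, limma voom with quality weights, RLE scaling, no filter, pseudocounts of 0.1 and 5, the replicate number as a block, 2 groups or populations alone, removal of 8 low-depth libraries (under 300000 counts or 8000 genes), and leaving out each library. The population-by-day test was added after seeing the data.

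All 10 members are described. From each pathway list up to 3 called genes per direction and comparison with the smallest adjusted p were named, and for 4 members the 3 genes of most like pattern. The members and lists were chosen with earlier results of these data known.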

Additional observations from a re-analysis of the deposited data

Results flagged for a closer look

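The change of Mcl1 by day differed between T cells and thymic epithelium, by log2 -0.92 ± 0.21 (edgeR, adjusted p = 0.00127; 5.89% of all genes were called), and Bcl2l11 changed differently in mTEC and cTEC, by log2 2.74 ± 0.67 (edgeR, adjusted p = 0.00332; 4.22% of all genes were called). What marks both is that the test of the difference between populations itself passed. The Mcl1 value lay between -1.02 and -0.84 over all alternatives run, with an adjusted p of at most 0.00512 when 1 library was left out. The Bcl2l11 value was 2.12 without WT mTEC replicate 3 of day 120 (adjusted p = 0.0139), and the day-30 cTEC libraries held 1134 to 1541 CPM of leukocyte and T cell markers, whose part in it was not tested.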

How the results depend on the processing

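Of 8572 member values recomputed under alternatives, 8356 kept their direction and their side of the threshold or had no call in either fit, 118 gained a call, 98 lost one, and no called value changed sign. The number of members called was 1 for SOD1-G93A over WT without low-depth libraries, against 0. For day 120 over day 30 it was 3 (limma voom) and 4 (without low-depth libraries) in cTEC, against 0, 2 (DESeq2 and RLE scaling) in mTEC, against 1, and 5 (limma voom) and 1 (trended dispersion) in CD4 cells, against 2. Without the low-depth libraries Pmaip1 and Bid gained a call for T cells over epithelium at day 30. The number called there was 8 with limma voom, against 4. For Treg over CD4 cells it was 1 (both populations alone, or without low-depth libraries) and 4 (limma voom) at day 30, against 0, and at day 120 4 (both populations alone, limma voom, or without low-depth libraries) and 0 (DESeq2, RLE scaling, no filter, trended dispersion), against 1. For mTEC over cTEC at day 30 it was 0 (both populations alone), 8 (limma voom) and 1 (DESeq2, RLE scaling, trended dispersion), against 2. With DESeq2 and the RLE scaling that 1 member was Bbc3, higher in mTEC, and with the trended dispersion it was Bcl2, lower in mTEC. Without the low-depth libraries Bax gained a call there, higher in mTEC. For the population-by-day test the number called was 2 (DESeq2) in T cells over epithelium, against 1, 3 (limma voom) in Treg over CD4 cells, against 0, and 3 (limma voom) or 2 (without low-depth libraries) in mTEC over cTEC, against 1. The causes of these differences were not tested, and these counts are not set against a share of all genes called under the same setting.

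Leaving out 1 library at a time gave 0 to 1 member calls by genotype and for genotype by day and 0 to 0 for genotype by culture time. By day it gave 4 to 6 in Treg, 0 to 4 in CD4 cells, 1 to 2 in mTEC and 0 to 4 in cTEC. For T cells over epithelium it gave 5 to 9 at day 120 and 3 to 4 at day 30, for Treg over CD4 cells 0 to 3 at day 120 and 0 to 0 at day 30, and for mTEC over cTEC 6 to 7 at day 120 and 0 to 2 at day 30. In the cultures it gave 7 to 8 at T2 over T0, 5 to 7 at T20 over T0 and 0 to 0 at T20 over T2. The population-by-day counts were 1 to 2, 0 to 0 and 1 to 3 for T cells over epithelium, Treg over CD4 cells and mTEC over cTEC.

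By the correlations below, replicate numbers did not pair all libraries of a comparison, except Treg and CD4 cells at day 30, where the block left 0 members called. Same-numbered deviations correlated over 0.1 in every pair in 0 of 13 genotype group pairs, 0 of 8 day pairs, 1 of 6 culture pairs and 7 of 24 population pairs. No label says what the numbers share. The sample descriptions give same-numbered libraries the same number in all sorted populations at day 120. In the cultures they give consecutive numbers over T0, T2 and T20. At day 30 they give consecutive numbers over the populations of a SOD1-G93A replicate. In WT at day 30, cTEC replicates 2 and 3 are numbered 9 and 21, next to mTEC replicates 3 and 1 at 10 and 22. Replicate numbers may thus not match WT cTEC of day 30 to its set. The check and the block therefore cannot show whether those libraries pair. The main tests treated all libraries as independent. With the replicate number as a block, 1 member was called for mTEC over cTEC at day 30, against 2, because Bcl2l11 lost its call (adjusted p = 0.0761), Bid lost its call for T cells over epithelium at day 120 (adjusted p = 0.0666), and Bcl2l1 passed by day in CD4 cells (adjusted p = 0.034). The block by day joined libraries of both genotypes and both days by number alone, so it is no check of a pairing. A member at 0 in a library of few counts may lie below its floor of 3 counts. In SOD1-G93A cTEC replicate 3 of day 120 that floor was 2.0 CPM, but the library held few genes for its counts. It had 7627 genes at 1836483 counts, where WT cTEC replicate 2 of day 120 had 13264 genes at 1269529 counts. A 0 in it therefore gives no bound on the level of a member.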
